A study of Mus musculus with 6 samples.

Results

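Immediate-early genes are transcribed within minutes of a stimulus by factors that the cell already holds, with no need for new protein. Many encode transcription factors that act on later genes, and their mRNAs are short-lived, so that their level in a tissue follows recent signals such as contraction, growth factors, hormones or stress. In skeletal muscle they are known to rise with exercise and injury. The 10 genes described here are a chosen set of such factors: the zinc finger protein Egr1, the AP-1 proteins Fos, Jun, Junb and Jund, the stress-induced bZIP factor Atf3, the orphan nuclear receptor Nr4a1, the nuclear proteins Ier2 and Ier5, and the growth regulator Myc. They were picked by name and matched by gene identifier, and all 10 of 10 were among the 12353 genes of the deposited table.

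The values come from the gastrocnemius, the large calf muscle, of 3 wild-type mice (Nogo+/+) and 3 Nogo knock-out mice (Nogo-/-), with 1 library of polyadenylated RNA for each mouse. The Nogo knock-out mice came from another laboratory, no treatment is named for these libraries, and all mice were kept under a 12 h light-dark cycle. Age, sex, the knock-out allele, the genetic background, whether the mice were littermates and the hour of dissection are not given for these libraries in the sources used here. Levels are in FPKM, a fragment count corrected for transcript length and sequencing depth. The libraries are called Samples 1 to 3 (Nogo+/+) and Samples 4 to 6 (Nogo-/-), and a number pairs no mouse with another.

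Rtn4, the Nogo gene itself, was at 414, 429 and 425 FPKM in the Nogo+/+ libraries and at 0.423, 0.312 and 0.368 FPKM in the Nogo-/- libraries, as the labels say (log2 fold change -8.40 ± 0.08 SE, limma adjusted p = 2.08e-10). The summed level of 7 markers of fast skeletal muscle was 28504 to 29199 FPKM in Nogo+/+ and 26787 to 28648 FPKM in Nogo-/-, and none of the 7 passed the test in limma (0 of 7 at an unadjusted p under 0.05). For Acta1, Ckm, Myh4 and Tnnt3 that test could show no difference. Quantile normalization sets genes of the same rank in every library to the same value. Their deposited levels did differ somewhat, with Acta1 at a mean of 5923 FPKM in Nogo+/+ and 5637 FPKM in Nogo-/-. Single Nogo-/- libraries stood apart in other tissues' markers. Sample 5 had a neutrophil marker sum of 15.4 FPKM against at most 2.28 FPKM in the Nogo+/+ libraries, Sample 6 a skin keratin sum of 143 FPKM against at most 9.50 FPKM, and Sample 4 an adipocyte sum of 463 FPKM against at most 209 FPKM. The adipocyte sum was 245 FPKM in Sample 5, also above that range, and 185 FPKM in Sample 6. Of the 4 adipocyte markers, Plin1 and Lep were higher in every Nogo-/- mouse than in any Nogo+/+ mouse. Adipoq and Cfd overlapped, and 0 of 4 passed the test. The endothelial sum was 123 to 137 FPKM in Nogo+/+ and 80.5 to 98.0 FPKM in Nogo-/-, with 5 of 6 markers lower, and the smooth muscle sum 121 to 131 against 75.4 to 107 FPKM, with 1 of 4 lower. Depth was even, at about 13481000 to 14424000 fragments in Nogo+/+ and 13751000 to 14448500 in Nogo-/-.

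The promoters of Nr4a1, Fos and Atf3 are shown because they carry most of the motif matches found among the members. Each run holds the 250 bases before the annotated start in RefSeq (GRCm38.p6), read 5′ to 3′ on the strand of the gene. Nr4a1 lies at chr15:101266596-101266845 on the plus strand, Fos at chr12:85473640-85473889 on the plus strand and Atf3 at chr1:191183334-191183583 on the minus strand. Capitals mark TGCGTCA and the EGR-type site GCGGGGGCG (here on the other strand) in Nr4a1, TGACGTA and the TATA box TATAAA in Fos, and TGACGTA (also on the other strand) in Atf3.
Nr4a1: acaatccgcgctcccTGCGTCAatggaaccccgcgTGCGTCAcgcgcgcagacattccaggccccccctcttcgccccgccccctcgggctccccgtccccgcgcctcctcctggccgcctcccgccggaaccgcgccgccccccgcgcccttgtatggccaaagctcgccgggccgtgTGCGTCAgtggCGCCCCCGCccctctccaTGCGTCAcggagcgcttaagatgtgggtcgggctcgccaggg
Fos: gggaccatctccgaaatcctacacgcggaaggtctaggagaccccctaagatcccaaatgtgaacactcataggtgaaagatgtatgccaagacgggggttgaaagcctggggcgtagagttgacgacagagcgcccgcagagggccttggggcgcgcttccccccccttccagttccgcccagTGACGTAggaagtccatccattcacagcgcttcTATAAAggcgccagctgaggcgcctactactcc
Atf3: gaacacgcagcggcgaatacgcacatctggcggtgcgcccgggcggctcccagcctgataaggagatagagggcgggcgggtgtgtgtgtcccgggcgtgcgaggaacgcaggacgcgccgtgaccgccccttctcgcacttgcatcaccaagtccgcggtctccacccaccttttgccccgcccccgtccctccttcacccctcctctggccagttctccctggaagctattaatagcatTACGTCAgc

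Motifs were searched on both strands in windows of 300 bases (250 before and 50 from the start), for which 7 of the 10 members had an entry; Egr1, Ier2 and Myc had none. GCGGGGGCG, the sequence that Egr1 itself binds, stood in the Nr4a1 window with its first base at -60 from the start and in 2.91% of all 32851 windows. TGCGTCA, which ends in a half-site of the cyclic AMP response element, occurred 4 times in the Nr4a1 window, first bases at -235, -215, -71 and -42. It was present in 2.12% of windows, and the Nr4a1 window was the only 1 of 32851 with at least 4 copies. TGACGTA stood at -66 in Fos and at -9 in Atf3 and was found in 1.27% of windows. TATAAA stood at -33 in Fos and at the start of Junb, against 13.6% of windows. None of the 7 member windows held the CArG box bound by serum response factor (1.63% of windows), the full cyclic AMP response element TGACGTCA (1.79%), the AP-1 site TGACTCA (5.20%), the NR4A site AAAGGTCA (1.51%) or the E-box CACGTG (7.15%). Sites more than 250 bases before the start were not searched, so these absences hold for the windows only. The RefSeq start used for Jund followed base 70697738, upstream of the gene start at 70698949 used for its level. The windows of Nr4a1 and Atf3 lay inside their genes, whose outermost annotated starts were at 101254269 and 191218039. Those outer starts were not searched. TGCGTCA and TGACGTA were added to the search after the sequences had been read, and a match is a run of letters, with no measurement of binding behind it. The cut of at least 4 copies of TGCGTCA equals the number in the Nr4a1 window. That this window was the only one to reach it follows in part from the choice of motif and cut.

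Of the 10 members, 1 was lower in Nogo-/- muscle (Egr1), 2 were higher (Nr4a1 and Myc) and 7 did not pass the test. Of all genes tested, 4.64% passed, 1.89% higher and 2.75% lower. The median log2 fold change of the members was -0.12, beside -0.01 for all genes. The fall of Egr1 thus stood beside a rise of Nr4a1 in the same libraries.

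**Figure D1:**
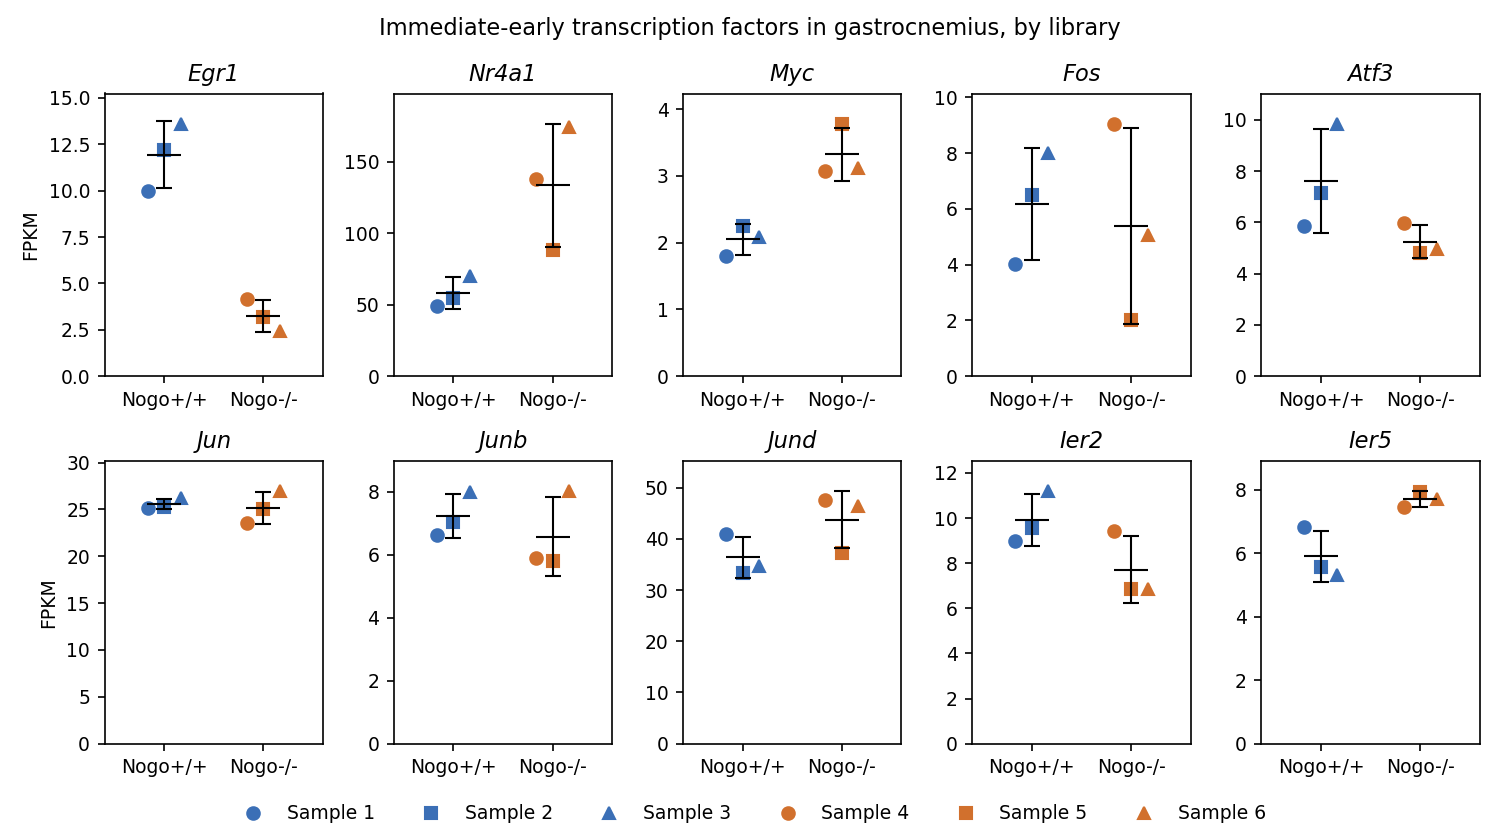
FPKM of the 10 members (vertical axis, from 0, scaled for each gene) in the 3 Nogo+/+ libraries (blue) and the 3 Nogo-/- libraries (orange), each symbol being 1 mouse and the black bars the mean ± SD. The groups do not overlap for Egr1, Nr4a1, Myc and Ier5, while Fos in Nogo-/- runs from 2.03 to 9.05 FPKM, past both ends of the Nogo+/+ range.

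Egr1 (ENSMUSG00000038418, chr18:34859823-34864984), a zinc finger factor that binds GC-rich promoters, was at 10.003, 12.2 and 13.6 FPKM in the Nogo+/+ libraries and at 4.15, 3.16 and 2.42 FPKM in the Nogo-/- libraries. Every Nogo-/- mouse was below every Nogo+/+ mouse. The mean level was 3.68-fold lower, at 3.24 ± 0.870 FPKM against 11.9 ± 1.82 FPKM (SD, n = 3 each), and the log2 fold change was -1.66 ± 0.14 SE (limma adjusted p = 5.76e-04). At the longest annotated transcript these levels correspond to 621, 739 and 880 fragments in Nogo+/+ and to 258, 205 and 149 in Nogo-/-. Egr1 passed in each of the 6 fits with a library left out. In bulk tissue, fewer cells that hold a transcript and less of it in each cell cannot be told apart, and the lower endothelial markers given above, whose summed level was 1.44-fold lower, moved with this fall; their part in it was not tested.

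Nr4a1 (ENSMUSG00000023034, chr15:101254269-101274795), also known as Nur77, an orphan nuclear receptor linked in muscle to glucose and lipid metabolism, moved the other way. Its level was 49.3, 54.4 and 70.5 FPKM in Nogo+/+ and 138, 88.3 and 174 FPKM in Nogo-/-. The groups did not overlap, although the Nogo-/- libraries spread widely and Sample 5 lay closest to the Nogo+/+ range. The mean was 2.30-fold higher (133 ± 43.1 against 58.1 ± 11.0 FPKM, SD, n = 3 each), with a log2 fold change of 1.10 ± 0.23 SE (limma adjusted p = 0.0342). The call was lost when any library other than Sample 5 was left out (adjusted p = 0.0572 to 0.133 in limma) and was firmer without Sample 5 (log2 fold change 1.37 ± 0.15 SE, adjusted p = 0.00538). The log2 fold change kept its sign throughout, between 0.88 and 1.37.

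Myc (ENSMUSG00000022346, chr15:61985391-61990374), a helix-loop-helix leucine zipper factor of growth and ribosome synthesis, was low in every library. It was at 1.801, 2.26 and 2.09 FPKM in Nogo+/+ and at 3.08, 3.78 and 3.11 FPKM in Nogo-/-, with no overlap. The mean was 1.62-fold higher and the log2 fold change 0.46 ± 0.10 SE (limma adjusted p = 0.0458), a value on log2(FPKM + 1) that understates the change of so low a gene. The call was lost in each of the 6 fits with a library left out (limma adjusted p = 0.0582 to 0.135), and at the longest of 8 annotated transcripts the levels rest on 58 to 71 fragments in Nogo+/+ and 100 to 128 in Nogo-/-.

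**Figure D2:**
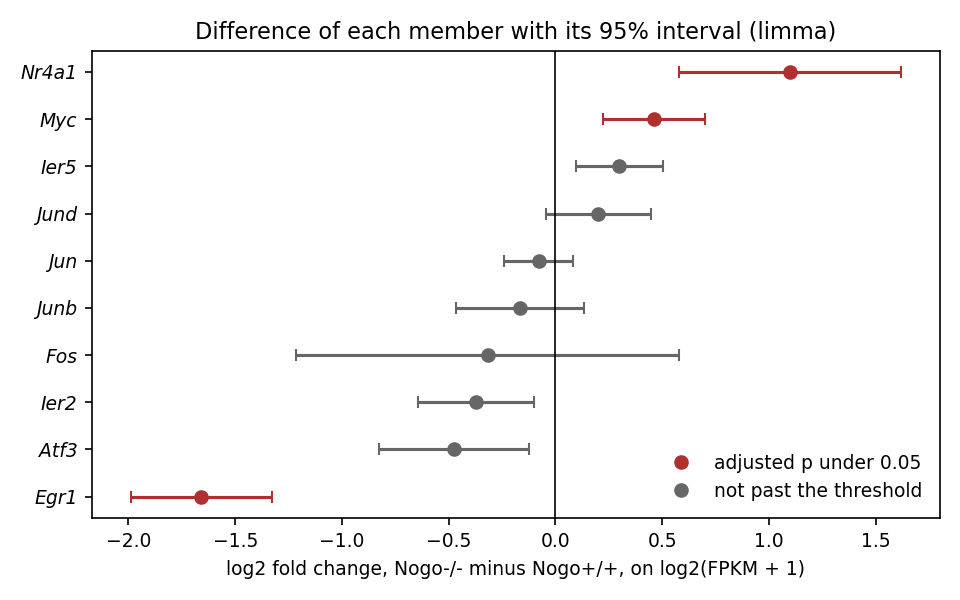
Log2 fold change of each member, Nogo-/- minus Nogo+/+ on log2(FPKM + 1) (horizontal axis), as the limma estimate (point) with its 95% interval (line), red for an adjusted p under 0.05. Egr1 at -1.66 and Nr4a1 at 1.10 lie at the ends, and the interval of Fos, from -1.21 to 0.58, is the widest.

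The genes of the AP-1 dimer, which pairs a FOS with a JUN protein, showed no change that passed the test. Fos was at 4.02, 6.51 and 8.01 FPKM in Nogo+/+ and at 9.05, 2.03 and 5.06 FPKM in Nogo-/-. The Nogo-/- libraries thus held both the highest and the lowest level of all 6. Its log2 fold change was -0.32, with a 95% interval from -1.21 to 0.58 (limma adjusted p = 0.704), and it turned to 0.14 when Sample 5 was left out. Differences of 0.46 in either direction, the size seen for Myc, lie inside this interval.

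Jun (ENSMUSG00000052684) was the steadiest member, at 25.2, 25.3 and 26.2 FPKM in Nogo+/+ and at 23.5, 25.0 and 26.9 FPKM in Nogo-/-. The ranges overlapped, and the interval of its log2 fold change, -0.24 to 0.08, leaves room for a small difference only (limma adjusted p = 0.597). Junb, which often opposes Jun, was at 6.64, 7.03 and 7.997 FPKM in Nogo+/+ and at 5.89, 5.80 and 8.02 FPKM in Nogo-/-, with an interval from -0.47 to 0.13. Jund, the JUN gene that many resting tissues express, was at 40.9, 33.4 and 34.7 FPKM in Nogo+/+ and at 47.5, 37.3 and 46.3 FPKM in Nogo-/-, with an interval from -0.05 to 0.45. Jun and Jund overlap annotated antisense genes and Junb overlaps Prdx2 on the other strand. The libraries were stranded, but whether the counting used the strand is not given in the sources used here, so these 3 levels are less certain.

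Within the JUN family the make-up was close in both genotypes. Jund gave 52.5% ± 3.26 of the summed FPKM of the 3 genes in Nogo+/+ and 57.8% ± 3.58 in Nogo-/- (SD, n = 3 each). Jun gave 37.0% ± 2.10 and 33.5% ± 3.09, and Junb 10.5% ± 1.25 and 8.68% ± 1.11. The summed level was 69.1 ± 3.52 FPKM in Nogo+/+ and 75.4 ± 6.70 FPKM in Nogo-/-. No test was run on these shares.

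Atf3 and Ier2 had a lower mean in Nogo-/- muscle, as Egr1 did, but neither passed the test. Atf3, a bZIP factor of the stress response that mostly represses, was at 5.87, 7.14 and 9.85 FPKM in Nogo+/+ and at 5.99, 4.82 and 4.95 FPKM in Nogo-/-. Only Sample 4 reached into the Nogo+/+ range, and the log2 fold change was -0.48 with a 95% interval from -0.83 to -0.12 (limma adjusted p = 0.134). Ier2, a small nuclear protein of the growth response, was at 8.99, 9.57 and 11.2 FPKM in Nogo+/+ and at 9.41, 6.85 and 6.86 FPKM in Nogo-/-. Here too Sample 4 lay within the Nogo+/+ range (log2 fold change -0.37, interval -0.64 to -0.10, limma adjusted p = 0.126). Ier2 passed in 1 of 6 fits with a library left out, that without Sample 4 (-0.50, limma adjusted p = 0.0470), and in 0 of 5 other settings. Atf3 passed in 0 of 6 and 0 of 5, with a limma adjusted p = 0.178 without Sample 4. Ier5, a relative of Ier2 known to act with the heat shock factor Hsf1, leaned the other way, at 6.83, 5.58 and 5.32 FPKM in Nogo+/+ and at 7.45, 7.95 and 7.73 FPKM in Nogo-/-. All 3 Nogo-/- mice were above all 3 Nogo+/+ mice, and the log2 fold change was 0.30 with an interval from 0.10 to 0.50 (limma adjusted p = 0.104).

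By overlap alone, 4 members were separated between the genotypes (Egr1, Nr4a1, Myc and Ier5) and 6 overlapped. Over all genes 25.9% did not overlap. An unadjusted p under 0.05 was reached by 6 of 10 members and by 20.5% of all genes.

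FPKM are per length and allow the members to be ranked within a genotype. In Nogo+/+ muscle the order of the mean levels was Nr4a1 (58.1 FPKM), Jund (36.4), Jun (25.6), Egr1 (11.9), Ier2 (9.92), Atf3 (7.62), Junb (7.22), Fos (6.18), Ier5 (5.91) and Myc (2.05). The ranges of neighbours overlapped from Egr1 down to Ier5, so the order there is loose. In Nogo-/- muscle Nr4a1 (133 FPKM), Jund (43.7) and Jun (25.1) kept the first places, while Egr1 moved from the fourth place to the last, at 3.24 FPKM beside 3.33 FPKM for Myc, with overlapping ranges. Nr4a1 made up 30.9% to 37.2% of the summed FPKM of the 10 members in the Nogo+/+ libraries and 47.7% to 61.0% in the Nogo-/- libraries. Without Nr4a1 the sums overlapped, at 110, 109 and 119 FPKM against 116, 96.7 and 111 FPKM.

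The ratio of a pair of members within a library does not depend on how libraries are scaled. The ratio of Nr4a1 to Egr1 was 4.92, 4.46 and 5.18 in the Nogo+/+ libraries and 33.2, 27.9 and 72.1 in the Nogo-/- libraries. On the log2 scale this was 2.28 ± 0.11 against 5.34 ± 0.73 (SD, n = 3 each), a difference of 3.07. The ratio of Myc to Egr1 was 0.180, 0.185 and 0.153 in Nogo+/+ and 0.742, 1.20 and 1.29 in Nogo-/-, so that Myc came to lie near Egr1. Nr4a1 and Myc lay above and Egr1 below the whole Nogo+/+ range in every Nogo-/- library. Both ratios therefore had to separate the genotypes, and they restate those levels. The log2 ratio of Junb to Jun was -1.83 ± 0.11 in Nogo+/+ and -1.95 ± 0.18 in Nogo-/-, a difference within the spread of the mice.

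**Figure D3:**
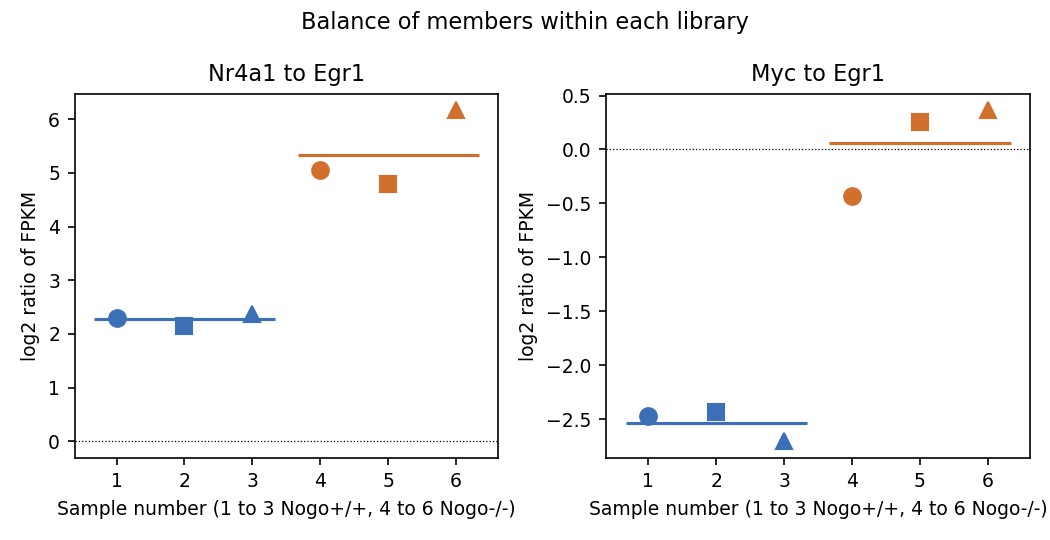
Log2 ratio of the FPKM of Nr4a1 to Egr1 (left) and of Myc to Egr1 (right) in each library, with the mean of each genotype as a line (Nogo+/+ blue, Nogo-/- orange). Both ratios are higher in every Nogo-/- library, with means of 5.34 against 2.28 and of 0.06 against -2.54. The levels of Nr4a1, Myc and Egr1, which do not overlap between the genotypes, fix this separation in advance.

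Most members varied more between mice of the same genotype than a typical gene. The residual SD on the log2 scale had a median of 0.10 over all genes, and the members stood at the percentiles 99.3 (Fos), 97.5 (Nr4a1), 92.4 (Atf3), 90.6 (Egr1), 87.3 (Junb), 82.9 (Ier2), 80.9 (Jund), 64.4 (Myc), 57.9 (Ier5) and 42.3 (Jun). Fos varied 4.46-fold between the highest and the lowest Nogo-/- mouse and Nr4a1 1.97-fold.

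Most members ranked the mice alike in Nogo+/+, while in Nogo-/- their orders were mixed. Among the Nogo+/+ mice, Sample 3 had the highest level for 7 of 10 members and Sample 1 the lowest for 8, against 34.2% and 32.2% of all genes. Among the Nogo-/- mice, Sample 5 was lowest for 6 members, against 26.0% of all genes. Sample 4 was highest for 5, near its share of 41.7% over all genes. Egr1 and Nr4a1 had the same order in Nogo+/+ (Sample 3 above Sample 2 above Sample 1) but not in Nogo-/-, where Sample 6 had the least Egr1 and the most Nr4a1. With the mean of each genotype removed, Pearson's r over the 6 mice was 0.04 for Egr1 and Nr4a1, 0.85 for Egr1 and Ier2, 0.73 for Egr1 and Atf3 and 0.58 for Egr1 and Fos. Values over 0.8 were reached by 5 of 45 pairs, the highest being Jun with Junb (0.91) and Fos with Ier2 (0.88). The lowest were Jund with Myc (-0.95), Ier5 with Atf3 (-0.90) and Egr1 with Ier5 (-0.87). The median of the 45 pairs was 0.08, with 26 positive and 19 negative. These values describe 6 mice that share their library with every gene, and no test was run on them. No share over all gene pairs is given here, so whether 5 of 45 is many cannot be told.

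**Figure D4:**
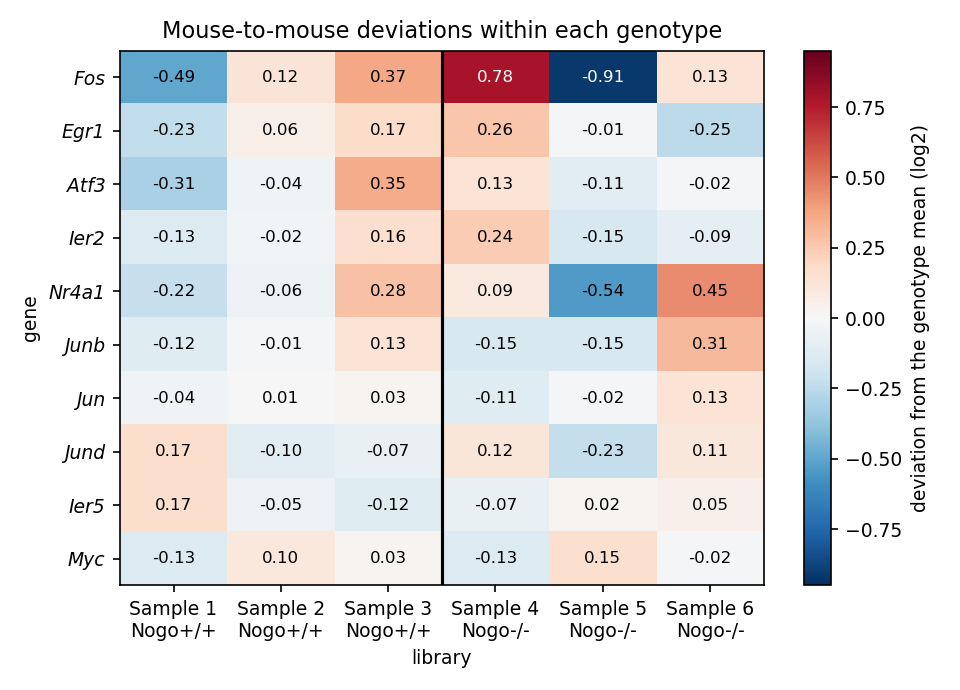
Deviation of each member from the mean of its genotype on the normalized log2 scale (colour and printed value), for the 6 libraries (columns) and the 10 members (rows). Sample 1 is below its genotype's mean for 8 of 10 members and Sample 5 stands out for Fos (-0.91) and Nr4a1 (-0.54).

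Over the 6 libraries, where the genotype sets much of any likeness, the genes most like Egr1 included Ppp1r15a (r = 0.996), which helps to end the stress-induced block of translation, Asb12, Gna13 and Sec14l5, all of which fell in limma (adjusted p at most 0.0228). Ppp1r15a fell from 28.2 ± 1.54 to 20.7 ± 1.21 FPKM (log2 fold change -0.48 ± 0.06 SE, limma adjusted p = 0.00439). An r over 0.95 with Egr1 was found for 2.10% of 6966 genes with a mean of at least 5 FPKM. The genes most like Nr4a1 were Churc1 (r = 0.995), Ky, Slc25a25, Tcof1 and Tsc22d1, and 0.675% of genes were over 0.95. Slc25a25, a mitochondrial carrier of ATP-Mg and phosphate, rose from 6.87 ± 1.52 to 51.3 ± 35.0 FPKM (2.40 ± 0.53 SE, limma adjusted p = 0.0413). Of the other four, none passed the test.

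Close relatives of the members did not pass the test. Of 15 further AP-1, small MAF and EGR genes and EGR co-repressors, 9 were in the table and 0 passed in limma in either direction, with 2 at an unadjusted p under 0.05 (20.5% of all genes). Egr2 was at 0.952, 0.804 and 0.979 FPKM in Nogo+/+ and at 1.07, 0.745 and 1.03 FPKM in Nogo-/-, so that the EGR gene beside Egr1 in the table overlapped fully (log2 fold change -0.01, interval -0.29 to 0.27). At so low a level log2(FPKM + 1) understates a change, so the narrow interval does not show that Egr2 was unchanged. The smallest p belonged to Jdp2, a repressor of AP-1 (0.27, limma adjusted p = 0.205), and the small MAF gene Maff (0.36, adjusted p = 0.216). Of 14 relatives of Nr4a1, the IER genes and Myc, 10 were in the table and 0 passed, with 5 of 10 at an unadjusted p under 0.05, beside 20.5% of all genes. Ier3 came closest, at 7.49, 5.23 and 4.65 FPKM against 8.91, 11.6 and 8.72 FPKM (0.64 ± 0.15 SE, limma adjusted p = 0.0577), followed by Mxd4, a partner of Max that opposes Myc (0.24, adjusted p = 0.0761). Nr4a3, also low, was at 1.03, 0.924 and 0.781 FPKM in Nogo+/+ and at 1.48, 1.28 and 2.09 FPKM in Nogo-/-. Its mean was 1.78-fold higher, with 0.42 on log2(FPKM + 1) (limma adjusted p = 0.157). Those 3 Nogo-/- values lay above all Nogo+/+ values, as for Nr4a1, without passing the test.

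Among 44 other immediate-early genes, 39 were in the table. Of these 39, 7 were higher and 2 lower in Nogo-/- muscle, against 1.89% and 2.75% of all genes. An unadjusted p under 0.05 was reached by 23 of the 39, beside 20.5% of all genes. The levels of 10 were higher and of 7 lower in every Nogo-/- mouse than in any Nogo+/+ mouse, and 22 overlapped, beside 25.9% of all genes without overlap. The median log2 fold change of the 39 was 0.09. Gadd45g, a stress sensor of the GADD45 family, was at 30.4, 43.1 and 51.0 FPKM in Nogo+/+ and at 174, 126 and 220 FPKM in Nogo-/- (1.99 ± 0.22 SE, limma adjusted p = 0.00220). Trib1, a pseudokinase that directs proteins to degradation, was at 5.31, 4.46 and 5.28 FPKM against 9.89, 11.8 and 11.5 FPKM (0.96 ± 0.09 SE, limma adjusted p = 0.00111). The zinc finger factor Klf6 was at 7.50, 6.48 and 7.59 FPKM against 13.9, 12.4 and 14.1 FPKM (0.78 ± 0.08 SE, limma adjusted p = 0.00171). These 3 genes passed in each of the 6 fits with a library left out.

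Mcl1, a survival factor of the BCL2 family, rose by 0.24 and Ccn2, a secreted matrix protein, by 0.93 on the log2 scale (limma adjusted p = 0.0233 and 0.0245). The remaining 2 genes that rose were Klf4 (0.78, limma adjusted p = 0.0378) and Klf2 (1.20, adjusted p = 0.0448), Krüppel-like factors that endothelial cells are known to express, in libraries whose endothelial marker sum was lower. The calls of Ccn2, Klf4 and Klf2 held in only 1 of 6 fits with a library left out, that without Sample 5, and that of Mcl1 in 2. The genes that fell were Pim1 and Ets2. Pim1, a serine/threonine kinase induced by cytokines, went from 9.28, 9.42 and 11.7 FPKM to 4.61, 3.53 and 3.46 FPKM (-1.23 ± 0.11 SE, limma adjusted p = 5.96e-04), and passed in each such fit, as Egr1 did. Ets2 fell by 0.33 on the log2 scale (limma adjusted p = 0.0240), a call kept in 1 of 6 fits with a library left out. Plk2 (-0.62, limma adjusted p = 0.0541) and Dusp6, a phosphatase of ERK (-0.39, adjusted p = 0.0579), lay just outside the threshold.

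**Figure D5:**
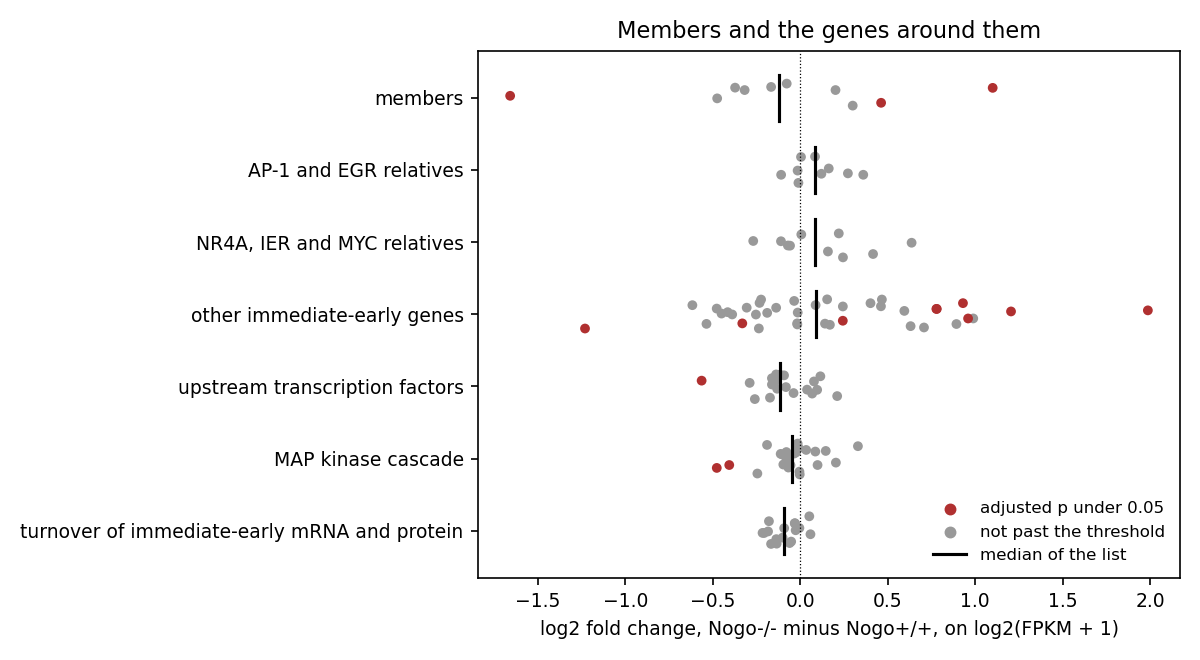
Log2 fold change, Nogo-/- minus Nogo+/+ on log2(FPKM + 1) (horizontal axis), of every gene in the table from the 10 members and 6 further lists (rows), red for a limma adjusted p under 0.05 and a black bar at the median of the list. Members and other immediate-early genes spread from -1.66 to 1.99, while the lists of their regulators stay between -0.56 and 0.33.

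One library bore on these counts more than the others. Sample 5 was the lowest Nogo-/- library for 23 of the 39 other immediate-early genes, against 26.0% of all genes, as it was for Fos and Nr4a1. With Sample 5 left out, 18 of the 39 were higher and 4 lower, against 1.59% and 1.93% of all genes in the same fit. Leaving out any other library gave 3 or 4 higher and 1 to 3 lower. Sample 5 was singled out on the values of these same genes, so the count of 18 is a description only. Dusp1, a phosphatase of MAP kinases, shows the pattern: it was at 29.1, 38.1 and 40.3 FPKM in Nogo+/+ and at 68.1, 11.7 and 57.2 FPKM in Nogo-/-. Its log2 fold change was -0.01 with all libraries (limma adjusted p = 0.993) and 0.77 ± 0.14 SE without Sample 5 (adjusted p = 0.0345). The further genes that passed only without it included Rhob (1.24), Csrnp1 (1.33), Errfi1 (1.04), Sgk1 (0.94), Nfkbia (0.89) and Zfp36 (0.85), named, like Dusp1, after their values were seen. Sample 5 is also the library with the neutrophil markers given above, and the part of those cells in its low values was not tested. Samples 4 and 6, with the highest adipocyte and keratin sums, were both above every Nogo+/+ library for Dusp1.

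Few regulators of the immediate-early genes passed the test, as few genes did over the whole table (4.64%). Of 19 transcription factors that act upstream, among them the serum response factor partners, CREB and MEF2 genes, 0 were higher and 1 was lower, with 7 at an unadjusted p under 0.05. The levels of 7 of the 19 were lower in every Nogo-/- mouse than in any Nogo+/+ mouse, and 2 were higher in every one, beside 25.9% of all genes that did not overlap. The gene that passed was Elk3, a ternary complex factor that endothelial cells also express, which went from 9.12, 8.35 and 8.44 FPKM to 6.67, 5.72 and 4.83 FPKM (-0.56 ± 0.09 SE, limma adjusted p = 0.0122). It passed in 3 of 6 fits with a library left out. Atf1 (-0.26, limma adjusted p = 0.0512) and Nfkb1 (-0.29, adjusted p = 0.0681) did not pass. Among 24 MAP kinase cascade genes in the table, 0 were higher and 2 lower, with 6 at an unadjusted p under 0.05. The 2 were Rps6ka3, from 13.0, 14.7 and 14.3 to 10.6, 10.2 and 11.1 FPKM (-0.41 ± 0.08 SE, limma adjusted p = 0.0233), and Rps6ka1, from 5.50, 5.02 and 5.77 to 3.27, 3.80 and 4.13 FPKM (-0.48 ± 0.10 SE, adjusted p = 0.0392). Both encode RSK kinases, which ERK activates and which phosphorylate factors such as Fos and Creb1. Their calls held in 2 and 1 of 6 fits with a library left out. Map2k6 (0.33, limma adjusted p = 0.0970) and Mapk9, which encodes a JNK (0.20, adjusted p = 0.112), did not pass. Of 17 genes for the decay of immediate-early mRNAs and proteins, 0 passed in limma in either direction, with 3 of 17 at an unadjusted p under 0.05 (20.5% of all genes) and the smallest p for Det1 (-0.18, adjusted p = 0.151) and Cnot1 (-0.21, adjusted p = 0.184). In all 6 lists together, 7 of 118 genes were higher and 5 lower, with a median of -0.03.

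Arntl and Dbp were taken to show the state of the muscle clock, whose genes the paper proposes Nogo regulates. Arntl, the clock activator also known as Bmal1, was at 15.6, 15.2 and 15.0 FPKM in Nogo+/+ and at 2.198, 1.33 and 1.41 FPKM in Nogo-/- (log2 fold change -2.67 ± 0.11 SE, limma adjusted p = 8.53e-06). Dbp, a clock output gene, was at 16.4, 15.3 and 17.5 FPKM against 149, 167 and 145 FPKM (3.11 ± 0.07 SE, adjusted p = 1.85e-07). Neither overlapped between the genotypes, so the difference in clock state moved with those of Egr1, Nr4a1 and Myc. With genotype and clock state the same in every mouse of a group, their shares in these differences cannot be told apart.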

How the data were processed

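The submitters' processing notes and the study's methods name a stranded mRNA kit, an Illumina HiSeq, CASAVA 1.8.2, cutadapt 1.4.2, STAR 2.6.1, Cufflinks 2.2.1 and the genome GRCm38.p6. The authors deposited FPKM by gene and library, restricted to genes that reached 1 FPKM in some library. Columns were assigned to a genotype by the study's own heading for the sample numbers. A further 6 columns, normalized values from the authors, could not be matched to the FPKM columns mouse by mouse and were not used. Of 12353 identifiers, 12342 had a symbol, and coordinates are those of GENCODE M21.

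The FPKM were quantile-normalized here over all genes, put on log2(FPKM + 1) and compared in limma 3.58.1 (R 4.3.3) with a mean-variance trend and no covariates. Adjusted p-values are by Benjamini-Hochberg over the 12353 genes, and genes called higher or lower had one under 0.05. FPKM are not counts, so no count test was run, and the permutation procedure of the study was not used. Values are mean ± SD over 3 mice, and fold changes ± SE. Depth was recovered from low FPKM of single-transcript genes, 94.5% to 95.6% of which lay within 0.1 of a whole fragment. The limma script was tested on simulated data. Python 3.11.15, NumPy 2.4.6, pandas 2.3.3 and matplotlib 3.10.9 served for tables and figures.

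The members and lists were chosen with earlier results of these data known. Named by rule were the members, Rtn4, Arntl, Dbp, up to 6 genes of each list that passed and 2 that did not, taken by p, and the 5 genes most like Egr1 and Nr4a1. One gene that the rule takes in is not reported here. Ccn2, Klf2, Klf4, Egr2, Nr4a3, Dusp1 and the genes named for Sample 5 fall outside that rule and were named after their values were seen. Alternatives were a pseudocount of 0.1, genes with a mean of 1 FPKM or more, FPKM as deposited, no trend, sample weights, and leaving out each library in turn.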

Additional observations from a re-analysis of the deposited data

How the results depend on the processing

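Rtn4, at -8.28 to -10.2 on the log2 scale in 5 other settings, and Egr1 (limma adjusted p = 2.77e-04 to 0.00738 in 5 other settings and 6 fits with a library left out) passed throughout. Without the mean-variance trend 0 members were higher, as Nr4a1 (adjusted p = 0.0767) and Myc (adjusted p = 0.0556) no longer passed, and the further lists held 3 higher genes. Nr4a1 and Myc passed in the 4 other settings that kept all libraries. With sample weights the further lists held 8 lower genes. With 1 library left out, 0 to 1 members were higher and 1 to 2 lower, the lists together held 3 to 19 higher and 1 to 5 lower genes, and Fos ranged from -0.71 to 0.14, positive without Sample 5. Without quantile normalization the calls over all genes turned from 233 higher and 340 lower (40.7% higher) to 302 higher and 234 lower (56.3%), while those over the members stayed at 2 and 1. With no trend 164 were higher and 257 lower, and with a library left out 83 to 196 higher and 105 to 238 lower; the cause was not tested. The authors' normalized columns were planned as an alternative and not run, as they could not be matched to the FPKM columns. No paired analysis was possible because nothing in the column names says which replicate of the labels each one is. With 3 mice a group, small differences of variable genes such as Fos were not detectable.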
